A study of Mus musculus with 4 samples.

Results

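The Hox genes encode the homeodomain transcription factors that give cells of the embryo their position along the head to tail axis. The members were all probes on the array that were not controls and whose gene name was Hoxa, Hoxb, Hoxc or Hoxd followed by a number. That gave 39 genes on 45 probes and 63 spots, among 34821 genes or transcripts on 55681 probes in all. The 39 genes were every Hox symbol of the mouse RefSeq table. Each was read from its brightest probe, which for most genes was the only one.

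RNA was hybridised to 4 single-channel Agilent arrays, 1 for each of 4 groups, and all came from male mouse embryonic fibroblasts (MEFs) undergoing reprogramming. The MEFs had been isolated from E13.5 embryos of Oct4-EGFP transgenic mice (OE-MEFs, in which the Oct4 promoter and enhancer drive EGFP), and several embryos were pooled, so no array stands for a single animal. All 4 groups had received Oct4, Sox2 and Klf4 (OSK) from retroviral vectors and were sampled at 8 days postinfection (dpi). The OSKA groups had received AKT-MER as well, a myristoylated AKT fused to a modified estrogen receptor that becomes active when 4-hydroxytamoxifen (4OHT) binds. From 3 dpi the cells were given 4OHT or vehicle, which made OSK − 4OHT, OSK + 4OHT, OSKA − 4OHT and OSKA + 4OHT. Of these, OSKA + 4OHT was the AKT-activated group. The free-text description of its array says that AKT-MER was not active, which contradicts its title, and the title was used. The study asked how AKT activation changes reprogramming. The comparisons below describe what the Hox genes did in it.

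Mammals carry 4 Hox clusters on 4 chromosomes. Within a cluster the genes are numbered from the 3' end, and genes with the same number in different clusters are paralogs. Low-numbered genes are switched on first and furthest forward in the embryo, and high-numbered genes later and further back. In the limb bud the 5' ends of the Hoxa and Hoxd clusters also pattern the arm, the wrist and the digits. Fibroblasts keep much of the Hox pattern of the place they came from, so MEFs made from whole embryos mix many positions. Polycomb proteins hold the silent genes of a cluster off and MLL proteins keep active ones on. Here paralogs 1 to 3 are called anterior, 4 to 8 central and 9 to 13 posterior.

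Levels are given as log2 intensity relative to the 75th percentile of the same array, so 0 is the brightness of that percentile. They compare 1 gene across arrays and not different genes, because each probe has its own brightness. The percentile itself lay at intensities from 377 to 462. Between 52.4% and 55.4% of spots were well above background, the mark that the scanner software gives a spot clearly brighter than its surroundings. No spot was saturated. With 1 array per group there were no replicates, so no difference below has a replicate check, and none was tested. The ± value beside a difference is the error that the scanner software assigns to the 2 spots, which leaves out any variation between cultures. Its median for the Hox genes was 0.21 in all 4 comparisons. The arrays lay at 4 positions of 1 slide, and an effect of position cannot be told apart from that of the group. As a check of the labels, the probe for Esr1, the receptor from which MER was made, was well above background on the OSKA arrays alone, with levels of 3.11 without and 3.32 with 4OHT. Pou5f1 (Oct4) and Klf4 were above background on every array and Sox2 on none, and whether these probes lie in the delivered sequences was not analysed here. Scaling to the spike-in controls instead of the 75th percentile shifted all genes together. Their median moved by -0.32 for 4OHT in OSK and by 0.036 for 4OHT in OSKA, while for AKT-MER it moved by -0.49 in vehicle and by -0.13 under 4OHT. It moved every Hox difference by the same amounts, so directions are relative to the bulk of genes on the array, and a difference turns where it is smaller than the shift and of opposite sign. For AKT-MER without 4OHT this holds for all positive values under 0.49.

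Most Hox genes were expressed in the reprogramming MEFs. On the OSK − 4OHT array 31 of the 39 genes (79.5%) were well above background, and on each of the other arrays 34 (87.2%), against 58.8% to 61.5% of all genes. The same 31 were above background on all 4 arrays. All 11 Hoxa genes belonged to them. In the Hoxb cluster Hoxb2 to Hoxb9 were above background on every array, and the outermost genes at either end, Hoxb1 of the hindbrain and Hoxb13 of the tail and prostate, on none. Hoxc12 and Hoxd1 were the other members above background on no array. The 10 spots of the Hoxb1 probe lay between -6.91 and -6.55 in mean level, close to the floor of the arrays.

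**Figure D1:**
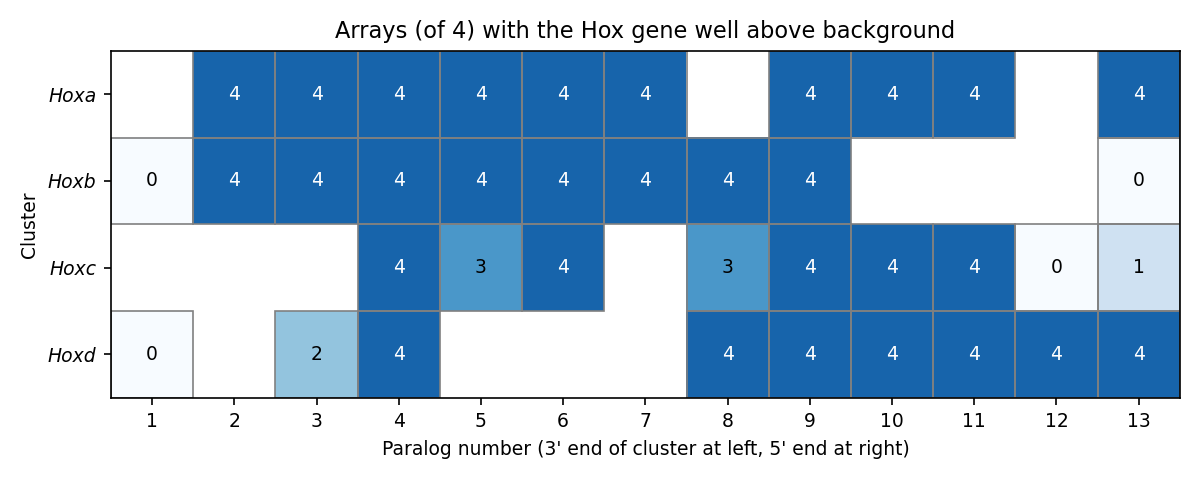
Number of the 4 arrays on which the Hox genes shown were well above background, by cluster (rows) and paralog number (columns); squares without a border have no gene shown. The counts are 4 for each Hoxa gene shown and from Hoxb2 to Hoxb9, and the genes at 0 are Hoxb1, Hoxb13, Hoxc12 and Hoxd1.

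The remaining 4 genes crossed the background mark on some arrays. Hoxc5, a neck and upper trunk gene, was not well above background on the OSK − 4OHT array (-5.27) and stood at -3.55 with 4OHT in OSK cells, -3.12 on the OSKA − 4OHT array and -2.64 on the OSKA + 4OHT array. It was thus low on a single array. Hoxc8, which acts in the thorax and the forelimb nerves, had levels of -4.38 (not well above background), -3.28, -3.01 and -3.27 in the same order. Hoxd3 stayed below the mark on the OSK arrays (-4.77 and -4.56) and stood at -3.51 and -3.87 on the OSKA arrays. Hoxc13, known for its part in hair and nails, was well above background on the OSK + 4OHT array only, at -4.09. The lowest level that passed the mark was between -4.90 and -4.54 on the 4 arrays. In bulk RNA, fewer cells expressing a gene and less RNA per cell cannot be told apart, here and below.

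**Figure D2:**
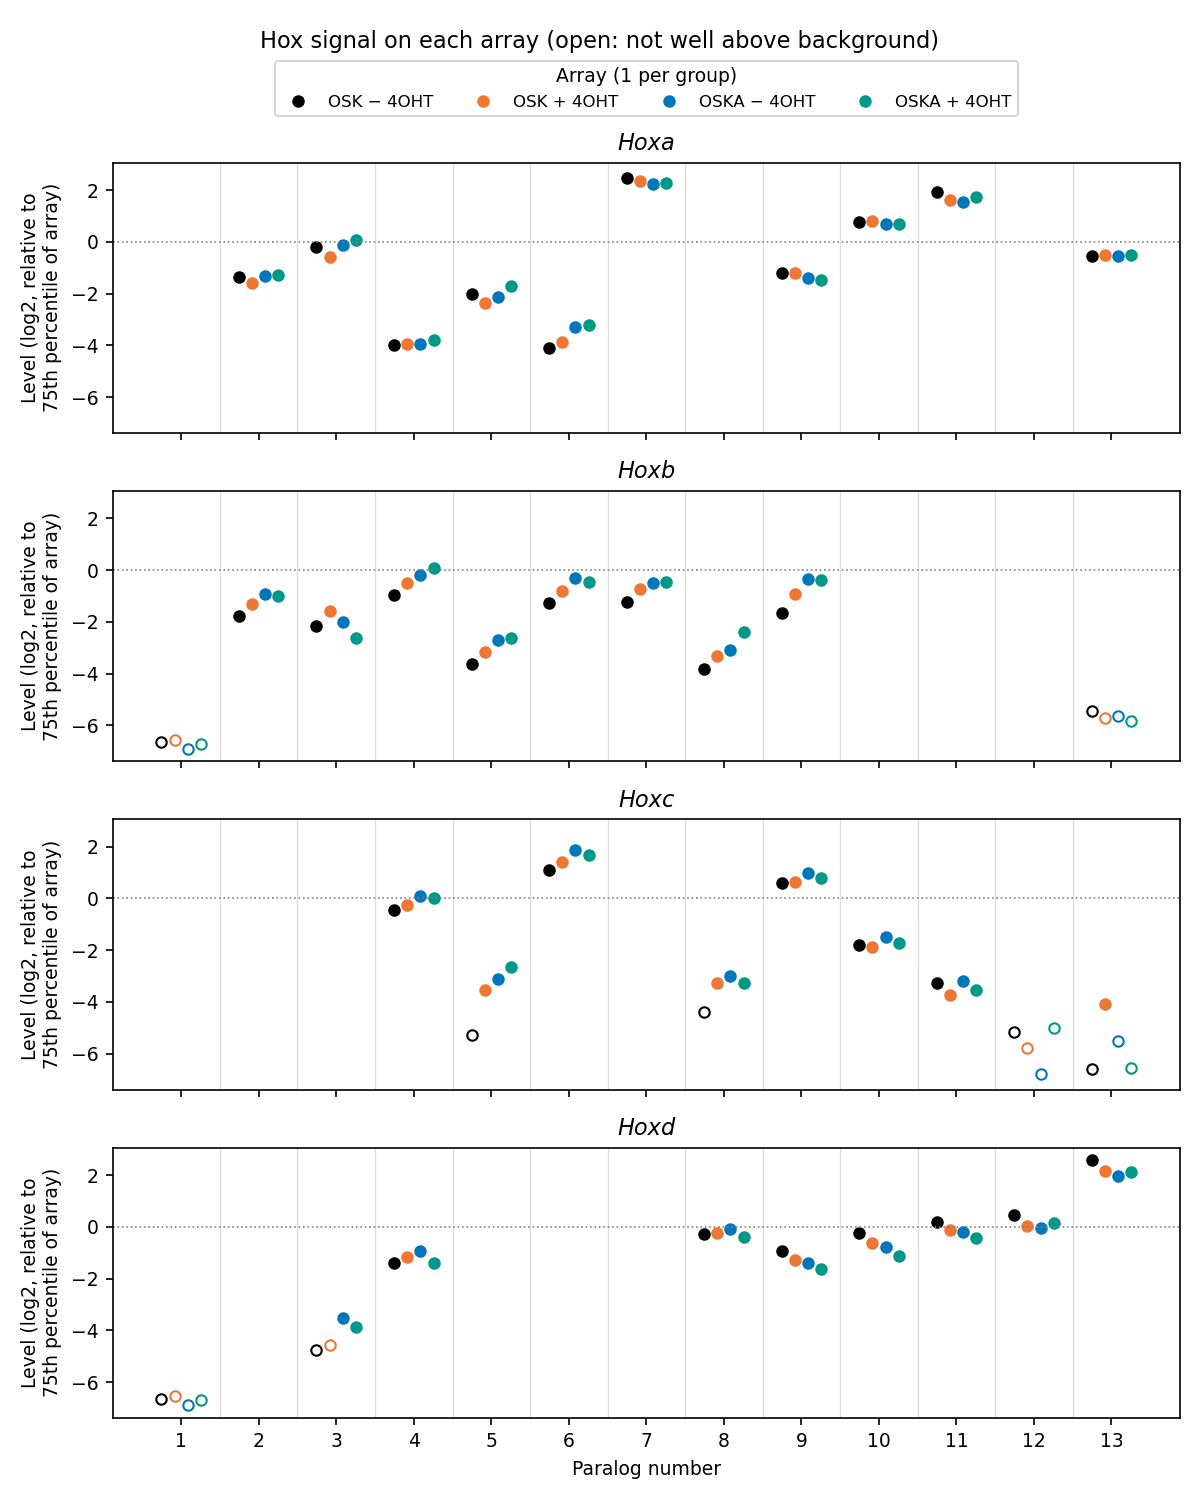
Level of the Hox genes shown (log2 intensity, with 0 at the array's 75th percentile, vertical axis) on the 4 arrays, by paralog number and cluster; filled points were well above background and open points were not. Within a gene the 4 points can be compared, but points of different genes cannot. In Hoxb the OSK − 4OHT point is the lowest of 4 for Hoxb2 and Hoxb4 to Hoxb9, and in Hoxd it is the highest for Hoxd9 to Hoxd13.

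Among genes measured on both arrays, at most 1 Hox gene was past 2-fold in either direction of a comparison. For the 4OHT effect in OSK cells (OSK + 4OHT minus OSK − 4OHT), which compares cells without AKT-MER, 31 Hox genes were measured on both arrays. None was 2-fold higher or lower, where 0.609% of all genes were higher and 0.277% lower. Their median was 0.028, against -0.0036 for all 19861 genes measured. The 4OHT effect in OSKA cells, the comparison of AKT-activated with AKT-nonactivated cells, had no Hox gene past 2-fold among 34 either, with 2.01% of all genes higher and 0.901% lower. Its Hox median was -0.0026, against -0.031 for all genes. For AKT-MER without 4OHT (OSKA − 4OHT minus OSK − 4OHT), 1 of 31 Hox genes was 2-fold higher, Hoxb9, and none was 2-fold lower, with 1.09% and 0.931% of all genes. The Hox median there was 0.086, against -0.017. For AKT-MER with 4OHT (OSKA + 4OHT minus OSK + 4OHT), none of 33 was 2-fold higher and Hoxb3 alone was 2-fold lower, with 1.92% and 1.12% of all genes and a Hox median of 0.16, against -0.049. Hoxc5, Hoxc8 and Hoxd3 had bounds of at least 2-fold in comparisons where they were above background on 1 side only. These bounds, and their smaller values under spike-in scaling, are given with each gene below. Each enters through the array on which the gene was bright, and bounds are in none of the counts above. With bounds, 2 of 39 were 2-fold higher for 4OHT in OSK cells (5.13%, against 0.77% of all genes). For AKT-MER without 4OHT 4 of 39 were (10.3%, against 1.06%).

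At 1.5-fold more Hox genes passed. In the AKT-MER effect without 4OHT, 9 of 31 Hox genes were at least 1.5-fold higher (5.66% of all genes were) and 1 was lower, Hoxd13 (3.99% of all genes). The 9 were Hoxa6, Hoxb2, Hoxb4 to Hoxb9, and Hoxc6. Under spike-in scaling the counts turned to 1 higher and 9 lower, with 0.798% and 35.5% of all genes. In the AKT-MER effect with 4OHT there were 5 higher of 33 (5.46% of all genes), which were Hoxa3, Hoxa5, Hoxa6, Hoxb8 and Hoxc5, and 1 lower, Hoxb3 (5.10%). Under spike-in scaling 2 were higher and 2 lower there, with 3.83% and 8.9% of all genes. With the mean of all probes Hoxa3 was 0.21 and Hoxb3 -0.17, so neither passed 1.5-fold. In the 4OHT effect in OSK cells Hoxb9 alone was 1.5-fold higher (4.33% of all genes) and none was lower (1.63%). Spike-in scaling turned these to 0 higher and 9 lower, with 0.866% and 12.3% of all genes. In the 4OHT effect in OSKA cells Hoxb8 was higher (5.06% of all genes) and Hoxb3 lower (4.64%), 1 gene each of 34. Spike-in scaling left 1 higher and 0 lower, with 5.6% and 3.97% of all genes. With the mean of all probes Hoxb3 was -0.19 there. With another background correction, limma's normexp, the counts of 1.5-fold higher Hox genes became 0 in both 4OHT effects, 5 for AKT-MER without 4OHT and 0 for AKT-MER with 4OHT, and Hoxb3 was not 1.5-fold lower with 4OHT in OSKA cells. Counts over all genes fell as well. Those 2-fold higher went from 121 to 21 for 4OHT in OSK cells and from 408 to 170 in OSKA cells. For AKT-MER they went from 219 to 38 without 4OHT and from 381 to 173 with it. The OSK − 4OHT array entered both the 4OHT effect in OSK cells and the AKT-MER effect without 4OHT, and each of the other arrays entered a pair of comparisons in the same way.

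**Figure D3:**
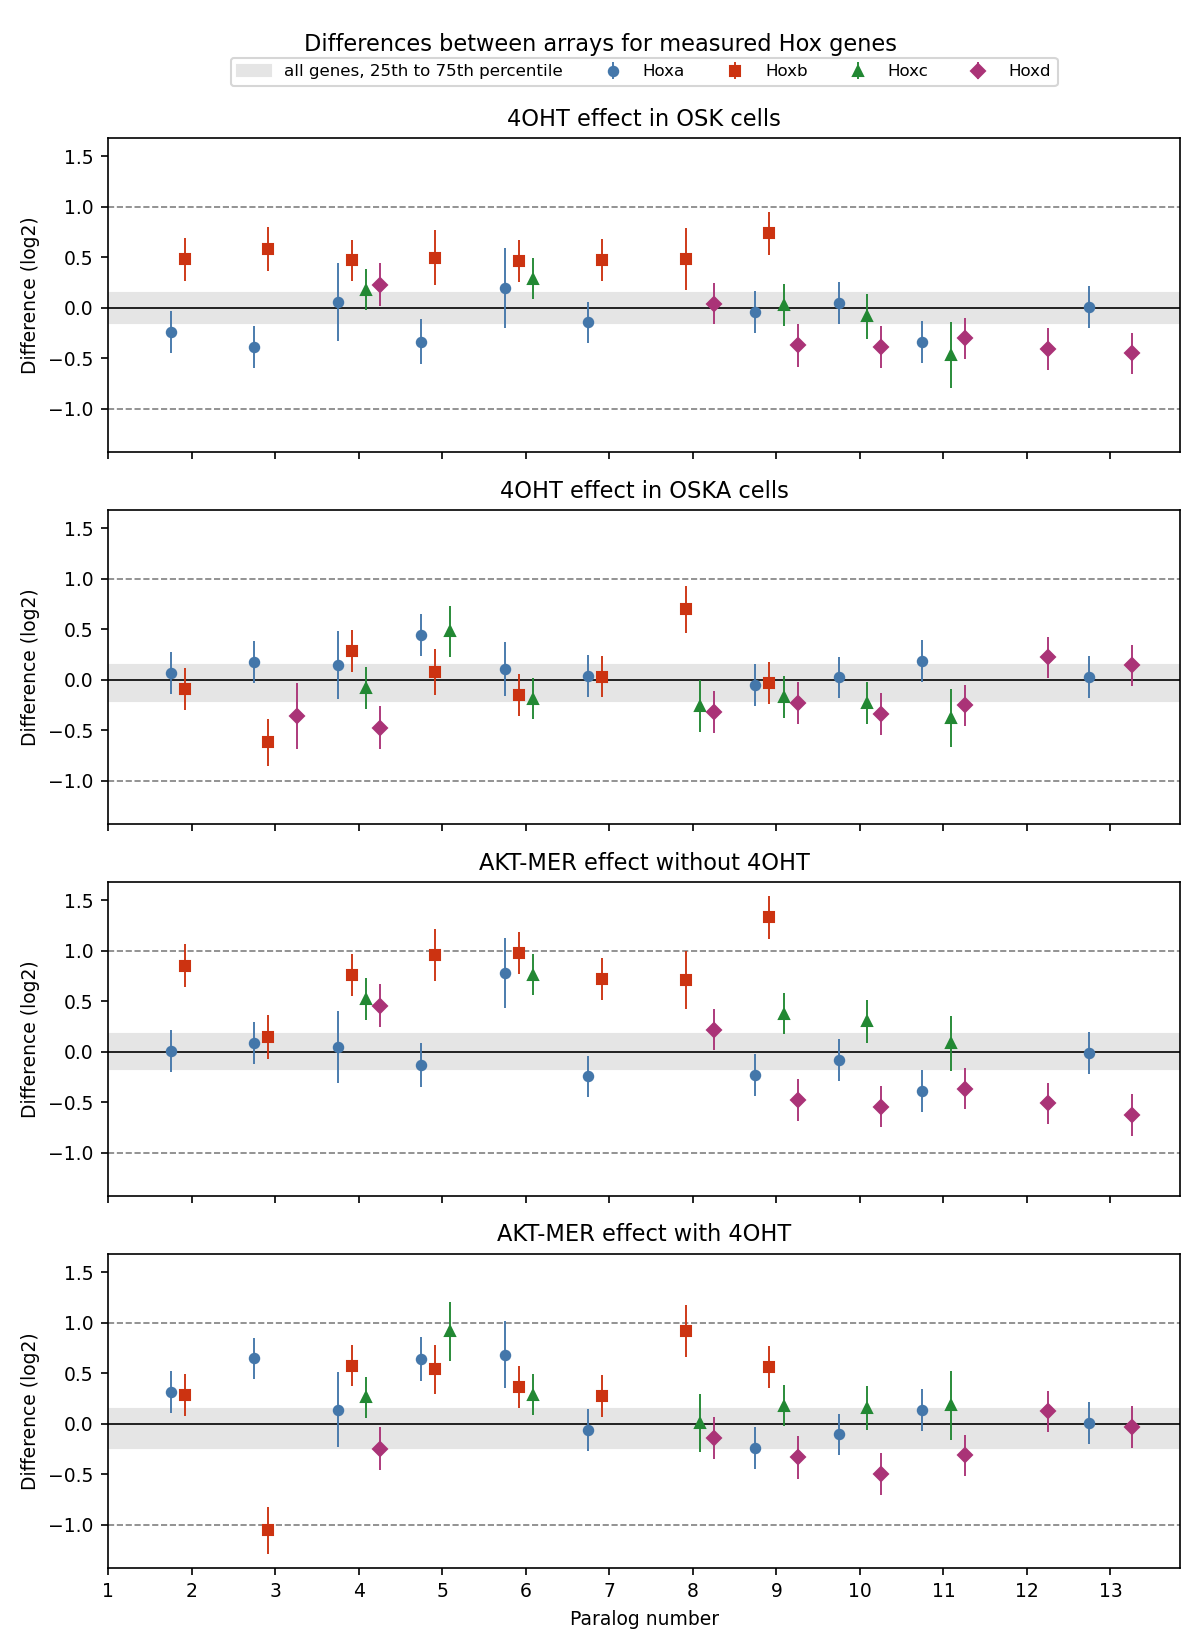
Difference between arrays (log2, vertical axis) for the Hox genes shown, well above background on both, by paralog number, in the 4 comparisons. Bars are the error from the scanner software, the grey band holds the central part of all genes, and dashed lines mark 2-fold. All 8 Hoxb genes lie between 0.46 and 0.74 in the 4OHT effect in OSK cells, and Hoxd9 to Hoxd13 lie between -0.63 and -0.37 in the AKT-MER effect without 4OHT.

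Relative to the 75th percentile, Hoxb had the cluster median furthest from 0 in 3 of the 4 comparisons. All 8 measured Hoxb genes were higher with 4OHT in OSK cells, from 0.46 to 0.74 by their brightest probes (median 0.49), and all 8 were higher with AKT-MER in the absence of 4OHT, from 0.15 to 1.33 (median 0.81). Of all genes, 49.4% and 47.0% were higher in these comparisons. Under spike-in scaling the Hoxb medians were 0.16 and 0.32, and 8 and 7 of the 8 genes remained higher. Hoxb3 was the gene that turned. Between the OSKA arrays, which differ by 4OHT, 4 Hoxb genes were higher and 4 lower (median 0.00039). With 4OHT present on both sides, 7 of 8 were higher with AKT-MER (median 0.45), where 42.9% of all genes were.

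Hoxb9, a gene of the thoracic skeleton, had the largest difference of all Hox genes measured on both arrays. Its levels were -1.67 on the OSK − 4OHT array, -0.93 on the OSK + 4OHT array, -0.34 on the OSKA − 4OHT array and -0.37 on the OSKA + 4OHT array. The OSKA arrays were close to each other and both were above the OSK arrays. AKT-MER without 4OHT therefore differed by 1.33 ± 0.21 (2.51-fold), and the 4OHT effect was 0.74 ± 0.21 in OSK cells and -0.030 ± 0.21 in OSKA cells. Under spike-in scaling its difference with AKT-MER without 4OHT was 0.84.

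Hoxb8, whose forced expression keeps blood progenitors immature, had levels of -3.80, -3.32, -3.10 and -2.40 on the OSK − 4OHT, OSK + 4OHT, OSKA − 4OHT and OSKA + 4OHT arrays. Its AKT-activated level was the highest of the 4. It was the only Hox gene at least 1.5-fold higher in the 4OHT effect in OSKA cells (0.70 ± 0.23, 1.62-fold), and in OSK cells 4OHT gave 0.49 ± 0.31. With normexp background correction its value in OSKA cells was 0.39, and no Hox gene was then 1.5-fold higher there. Hoxb4, studied for the expansion of blood stem cells, followed the same order at a smaller size, with -0.95, -0.48, -0.19 and 0.095. Hoxb2, Hoxb5, Hoxb6 and Hoxb7 were lowest on the OSK − 4OHT array too, at -1.78, -3.65, -1.27 and -1.21. Their AKT-MER effects without 4OHT were 0.85, 0.96, 0.97 and 0.72. In OSKA cells their 4OHT effects lay between -0.15 and 0.077.

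Hoxb3 did not follow its neighbours. Its brighter probe read -2.16, -1.58, -2.02 and -2.64, lowest on the AKT-activated array, which gave -0.62 ± 0.23 for 4OHT in OSKA cells and -1.06 ± 0.23 for AKT-MER with 4OHT. Its other probe, some way along the same gene, read -3.01, -2.97, -2.49 and -2.25, highest on that array. The differences of that probe were 0.24 and 0.72, and 0.048 for 4OHT in OSK cells against 0.58 by the brighter probe, so the size and the direction for Hoxb3 depended on the probe. The mean of both probes left no Hox gene 2-fold lower.

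The sequences just upstream of Hox transcription starts are shown for a pair of Hoxb genes that were low on the OSK − 4OHT array and a pair of Hoxd genes that were high on it. Each is the 250 bases before the start in RefSeq, on build GRCm38.p6, written 5' to 3' with CpG dinucleotides in capitals.
Hoxb4, chr11:96318017-96318266, plus strand: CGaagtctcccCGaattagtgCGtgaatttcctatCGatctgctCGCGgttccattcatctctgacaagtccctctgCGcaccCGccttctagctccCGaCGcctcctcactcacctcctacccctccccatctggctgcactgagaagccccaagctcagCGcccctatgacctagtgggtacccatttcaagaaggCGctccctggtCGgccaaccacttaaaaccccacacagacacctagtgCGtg
Hoxb8, chr11:96281655-96281904, plus strand: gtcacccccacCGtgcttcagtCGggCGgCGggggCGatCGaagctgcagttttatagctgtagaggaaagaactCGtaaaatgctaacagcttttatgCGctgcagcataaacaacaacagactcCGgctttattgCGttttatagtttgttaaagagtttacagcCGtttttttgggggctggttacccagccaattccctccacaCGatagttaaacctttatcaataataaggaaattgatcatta
Hoxd10, chr2:74691641-74691890, plus strand: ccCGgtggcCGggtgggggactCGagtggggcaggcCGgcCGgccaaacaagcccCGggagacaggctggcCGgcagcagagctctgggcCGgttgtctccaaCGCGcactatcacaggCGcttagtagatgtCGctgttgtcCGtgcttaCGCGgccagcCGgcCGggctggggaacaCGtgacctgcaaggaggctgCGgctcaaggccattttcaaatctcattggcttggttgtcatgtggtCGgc
Hoxd13, chr2:74667975-74668224, plus strand: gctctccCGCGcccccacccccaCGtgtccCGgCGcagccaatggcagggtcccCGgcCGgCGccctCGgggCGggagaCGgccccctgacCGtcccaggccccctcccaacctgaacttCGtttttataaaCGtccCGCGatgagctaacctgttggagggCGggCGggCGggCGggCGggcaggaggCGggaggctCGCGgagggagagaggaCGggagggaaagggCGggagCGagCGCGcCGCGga
The Hoxb windows held 14 and 12 CpG, and the Hoxd windows 20 and 31. Promoters were listed for 22 of the 39 Hox genes, on 24 windows. Their median was 12.5 CpG with a range from 2 to 35, against a median of 6 for all 32851 promoters in the table. Searched on both strands over the 250 bases, the CCAAT letters were in 14 of the 24 Hox windows, Hoxb8, Hoxd10 and Hoxd13 among them, and in 33.8% of all promoters. TATAAA was in 4, including Hoxb8 and Hoxd13, and in 12.4% of all promoters. TGATTNAT, the joint site of PBX and HOX proteins, was in 2, Hoxa2 and a window of Hoxd11, and in 2.82% of all promoters. GTAAACA, the core site of FOXO factors, which AKT inactivates, was in 0 of the 24 and in 3.17% of all promoters. None of these motifs contains another.

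In the Hoxc cluster the OSKA − 4OHT array was the highest. All 5 Hoxc genes measured on every array peaked there, where 19.0% of all genes did. AKT-MER without 4OHT gave 5 of 5 higher (median 0.38), but under spike-in scaling the median was -0.11 and 3 of the 5 turned. With 4OHT present, 7 of 7 were higher (median 0.18, 6 of 7 under spike-in scaling), where 42.9% of all genes were. In OSKA cells 4OHT gave 6 of 7 lower (median -0.19), where 54.8% of all genes were. Hoxc6, a gene of the upper thorax, had levels of 1.10, 1.39, 1.86 and 1.68, and its AKT-MER effect without 4OHT was 0.76 ± 0.20. For Hoxc4, at the 3' end of the cluster, the levels were -0.43, -0.25, 0.094 and 0.014.

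For Hoxc5 and Hoxc8, dim on the OSK − 4OHT array, only bounds could be given. Hoxc5 was at least 2.17-fold higher with 4OHT in OSK cells and at least 2.93-fold higher with AKT-MER without 4OHT. Hoxc8 was at least 2.15-fold and at least 2.58-fold higher in these comparisons. Under spike-in scaling the bounds for Hoxc5 were 1.74-fold and 2.09-fold, and those for Hoxc8 1.72-fold and 1.85-fold. Elsewhere Hoxc5 went from -3.12 to -2.64 with 4OHT in OSKA cells, a difference of 0.48 ± 0.25, and Hoxc8 from -3.01 to -3.27, a difference of -0.26 ± 0.26 that did not exceed its own error. Of the posterior genes, Hoxc9 differed by at most 0.38 and Hoxc10 by at most 0.30 in any comparison, both for AKT-MER without 4OHT, where they turned under spike-in scaling. Hoxc11, expressed in the hind limb, had levels of -3.26, -3.73, -3.18 and -3.55, lower with 4OHT in both backgrounds, by -0.47 ± 0.33 in OSK and -0.37 ± 0.29 in OSKA cells. With normexp these were -0.036 and -0.098.

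Posterior Hoxd genes ran the other way from Hoxb. Hoxd9 to Hoxd13 were all higher on the OSK − 4OHT array than on any other, so that all 5 were lower with 4OHT in OSK cells, from -0.45 to -0.30, and lower with AKT-MER without 4OHT, from -0.63 to -0.37. Hoxd13, the gene of the digits, had levels of 2.59, 2.14, 1.96 and 2.10, and its AKT-MER effect without 4OHT was -0.63 ± 0.20 (0.65-fold). Hoxd12 was likewise high on the first array, at 0.45 against 0.039, -0.065 and 0.16. Between the OSKA arrays they differed by 0.14 and 0.22, each about the size of the software error.

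Hoxd9, Hoxd10 and Hoxd11, which pattern the limb, reached their lowest level on the AKT-activated array instead. Hoxd10 had levels of -0.25, -0.63, -0.79 and -1.13, so that each of the 4 comparisons gave a value between -0.54 and -0.34. Hoxd11 had levels of 0.18, -0.12, -0.19 and -0.44. The other Hoxd11 probe showed the same order with wider steps, -0.75, -1.30, -1.52 and -1.86. Hoxd9 went from -0.93 on the OSK − 4OHT array to -1.63 on the OSKA + 4OHT array.

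The central genes of the cluster differed from the posterior ones. Hoxd4 had levels of -1.40, -1.17, -0.95 and -1.42, highest on the OSKA − 4OHT array. It was lower by -0.47 ± 0.21 with 4OHT in OSKA cells and higher by 0.23 ± 0.21 with 4OHT in OSK cells, a value that turned to -0.090 under spike-in scaling. Hoxd8 spanned -0.39 to -0.070 with no difference past 1.5-fold. For AKT-MER, Hoxd3 was higher by at least 2.23-fold in vehicle and by at least 1.60-fold under 4OHT, bounds that were 1.59-fold and 1.46-fold with spike-in scaling. It differed by -0.36 ± 0.33 between the OSKA arrays.

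Most Hoxa genes moved little. Their medians were -0.039 and 0.067 for 4OHT in OSK and OSKA cells, and -0.055 and 0.13 for AKT-MER without and with 4OHT. Between the OSKA arrays 10 of 11 were higher (45.2% of all genes were), but 8 of these by 0.18 or less. Over the 4 arrays Hoxa13 spanned 0.026 and Hoxa10 spanned 0.13, both within the software error. Hoxa13 marks the wrist and digits as Hoxd13 does, yet its levels were -0.53, -0.52, -0.54 and -0.52. Its other probe, above background on 3 arrays, differed by -0.31 with 4OHT in OSK cells and by -0.53 with AKT-MER without 4OHT.

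Hoxa5, which patterns the neck, lung and upper trunk, had levels of -2.01, -2.35, -2.15 and -1.70. It differed by -0.33 with 4OHT in OSK cells and by 0.44 ± 0.21 in OSKA cells, the largest 4OHT difference of the cluster in AKT-MER cells. Hoxa3, which forms the thymus and parathyroid, had levels of -0.20, -0.59, -0.12 and 0.057. Hoxa6 was higher on both OSKA arrays (-3.31 and -3.20) than on the OSK arrays (-4.09 and -3.88), by 0.78 ± 0.34 and 0.68 ± 0.33. With normexp these were 0.29 and 0.16, and with spike-in scaling 0.29 and 0.56. Hoxa11, the forearm and uterus gene, was read from 10 spots on each array and so has a measured technical spread. Its mean levels were 1.94 ± 0.030, 1.60 ± 0.035, 1.55 ± 0.039 and 1.74 ± 0.048 (SD over 10 spots of 1 array). The OSK − 4OHT array was highest, and the steps were wider than the spread between spots, which are not replicates of the culture. Hoxa9 could not be settled, since its brighter probe differed by -0.039 with 4OHT in OSK and -0.050 in OSKA cells and its other probe by -0.47 and 0.44.

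Members with the same number but in different clusters did not move as a group. In paralog group 9 the AKT-MER effect without 4OHT was -0.23 for Hoxa9, 1.33 for Hoxb9, 0.38 for Hoxc9 and -0.47 for Hoxd9. In group 10 it was -0.082 for Hoxa10, 0.30 for Hoxc10 and -0.54 for Hoxd10. Of the groups given here, group 6 was the nearest to a common value, with 0.78, 0.97 and 0.76 for Hoxa6, Hoxb6 and Hoxc6. With normexp Hoxa6 was 0.29 and Hoxb6 0.76. By position along the clusters, the 13 central genes measured had a median of 0.71 in this comparison with 11 higher, and the 13 posterior genes -0.23 with 9 lower, where 47.0% of all genes were higher and 53.0% lower. Under spike-in scaling these medians were 0.22, with 8 higher, and -0.71, with 12 lower. The central median was -0.043 within Hoxa and 0.76 within Hoxb.

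Seen array by array, the OSK − 4OHT culture stood apart for Hoxb and Hoxd. It was the lowest of the 4 for 7 of 8 Hoxb genes (87.5%, against 27.2% of all genes) and the highest for 5 of 7 Hoxd genes (71.4%, against 31.6%). The median Hoxb gene lay -0.57 from its own mean there, then -0.10, 0.28 and 0.34 on the OSK + 4OHT, OSKA − 4OHT and OSKA + 4OHT arrays. The median Hoxd gene went from 0.32 through 0.016 and -0.086 to -0.18. On the OSKA + 4OHT array 5 of 7 Hoxd genes were at their lowest (71.4%, against 37.5% of all genes). The difference between the 4OHT effects, OSKA minus OSK, which uses all 4 arrays, had a median of -0.012 over 31 Hox genes and -0.037 over 19540 genes. Its median was -0.51 for Hoxb, with 7 of 8 negative (54.3% of all genes were), and 0.049 for Hoxd. Under spike-in scaling these medians were -0.15, with 6 of 8 negative, and 0.41.

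**Figure D4:**
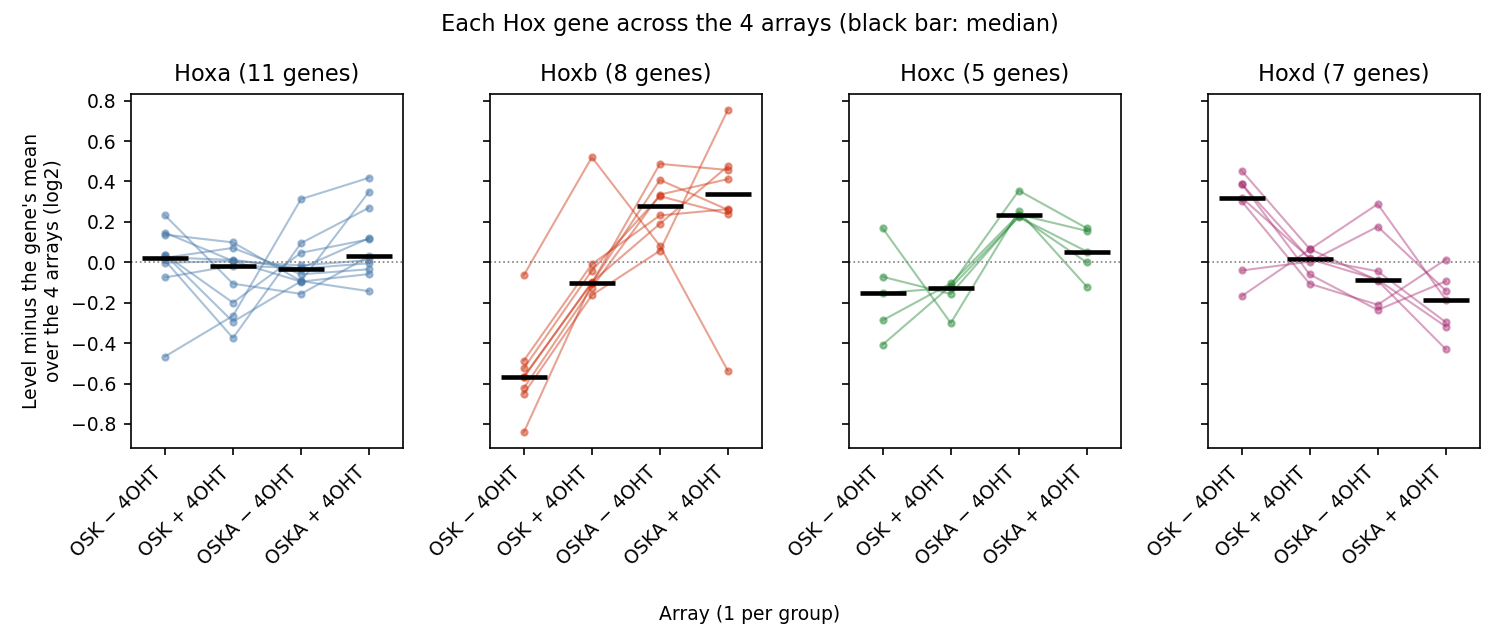
Level of each Hox gene minus its own mean over the 4 arrays (log2, vertical axis) on each array, for the 31 genes above background on all 4, with 1 line per gene and black bars at the median. From left to right the Hoxb median goes from -0.57 to 0.34 and the Hoxd median from 0.32 to -0.18, while Hoxa stays within 0.031 of 0.

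Between the members, the arrays carry probes for other transcripts of the clusters, many of them non-coding. Of 22 such probes between Hoxb13 and Hoxb1, 14 were above background on at least 1 array. AKT-MER without 4OHT gave 8 of 10 measured higher, with a median of 0.34 that turned under spike-in scaling. A probe to a minus-strand transcript beside Hoxb7 (chr11:96152394-96152453 on NCBI37) went from -2.19 on the OSK − 4OHT array to -0.96 on the OSKA − 4OHT array, a difference of 1.23. In the stretch between Hoxb5 and Hoxb4 (chr11:96175777-96176029) 2 probes on the plus strand differed by 1.21 and 1.15, and another was at least 3.01-fold higher. All 4 were lowest on the OSK − 4OHT array, like the Hoxb genes around them. A further plus-strand probe between Hoxb5 and Hoxb4 (chr11:96174257-96174316) was highest there instead, at -2.71, and differed by -0.26 with AKT-MER without 4OHT. A plus-strand probe between Hoxb13 and Hoxb9 (chr11:96125675-96125734) differed by -1.01 with 4OHT in OSKA cells, from 0.25 to -0.76. A pair of probes at one place nearby differed by only -0.23 and -0.14, and another was at background. Hoxa11as, transcribed opposite Hoxa11, had levels of 4.60, 4.38, 4.04 and 3.90. HOTAIR, the long non-coding RNA of the Hoxc cluster, was above background on 1 of 5 probes and stayed between -1.53 and -1.41. A minus-strand transcript in the Hoxd cluster (chr2:74551381-74551440) was above background on the OSK + 4OHT array only, at -2.89.

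Genes for proteins that work with or on Hox genes had medians close to 0. All 9 TALE cofactors, the Pbx, Meis and Pknox proteins that bind DNA beside HOX proteins, were above background on every array, and their medians lay between -0.083 and 0.034 in the 4 comparisons. Pbx4 differed by -0.96 with AKT-MER without 4OHT. The 18 Polycomb genes were all above background on at least 3 arrays, with medians between -0.15 and -0.065. None measured on both arrays was past 2-fold, and Cbx7, not well above background on the OSKA + 4OHT array, had a bound of -1.13 for 4OHT in OSKA cells. Their catalytic member Ezh2 had levels of 1.12, 1.05, 0.92 and 1.22. The 10 MLL, DOT1L and demethylase genes had medians between -0.10 and 0.080, and none was past 2-fold. Since 0.277% to 2.01% of all genes passed 2-fold in 1 direction of a comparison, a count of 0 in lists this short says little.

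Genes of the retinoic acid pathway, which switches Hox genes on, passed 1.5-fold more often where the OSKA + 4OHT array was compared. Of 19 retinoic acid and Cdx genes 13 were measured in each comparison, and Cdx1, Cdx2 and Cdx4, the caudal factors upstream of Hox, were above background on none. Between the OSKA arrays 4 of 13 were at least 1.5-fold higher and none lower, where 5.06% of all genes were higher and 4.64% lower. They were Crabp2, a retinoic acid carrier (1.44, the single gene past 2-fold, as 2.01% of all genes were), and Aldh1a1, Aldh1a2 and Aldh1a3, the enzymes that make retinoic acid (0.97, 0.65 and 0.73). In OSK cells 4OHT gave -0.20 for Crabp2 and 0.68, 0.39 and 0.24 for the 3 Aldh1a genes in the same order, of which the last turned under spike-in scaling. For AKT-MER with 4OHT 4 of 13 were 1.5-fold higher (5.46% of all genes) and Rxra was lower (-0.63, with 5.10%). Stra6, above background on the OSK + 4OHT array only, was at least 3.04-fold lower there. For 4OHT in OSK cells and for AKT-MER without 4OHT, 1 of 13 was 1.5-fold higher, with 4.33% and 5.66% of all genes. Of the 25 limb and mesenchyme position genes 23 were measured in OSK cells, where 19 were lower with 4OHT (median -0.24), as 50.6% of all genes were. Tbx5 and Tbx4, the fore and hind limb factors, were highest on the OSK − 4OHT array, at 1.22 and 2.51, as the posterior Hoxd genes were. Meox1 and Twist2 of the same list were lowest there instead, at -2.60 and 1.05. Meox1 was 2-fold higher with AKT-MER without 4OHT (1.06), as 1.09% of all genes were.

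Markers of the cell types that the cultures could hold are given beside these results. All 9 fibroblast genes were above background on every array, and their summed level was lowest on the OSK − 4OHT array and highest on the AKT-activated array, from 1032 to 1379 times the 75th percentile. Such a sum weighs the brightest probes most, here that of Col1a2. Between the OSKA arrays 8 of the 9 were higher (45.2% of all genes were). Pdgfrb went the other way, from 3.03 to 2.35, its lowest level. Of 9 pluripotency genes 6 were above background, with a sum between 4.41 and 5.41, and Zfp42, Esrrb and Dppa4 were on no array. Haematopoietic genes were 6 or 7 of 8 above background, with sums of 253 to 280. Their median was 0.51 with 4OHT in OSK cells and 0.42 for AKT-MER without 4OHT (turned under spike-in scaling), and -0.13 between the OSKA arrays. For AKT-MER with 4OHT, where 7 of 8 Hoxb genes were also higher, the haematopoietic median was -0.18. Gata1 was at background throughout, while Csf1r and Emr1 of macrophages were lowest on the OSK − 4OHT array, at 5.91 and 3.63. Itgam of myeloid cells and Cd34 of progenitors and endothelium were highest there instead, at 4.59 and 6.93. Epithelial genes (6 or 7 of 8 above background) summed to 14.6, 11.98, 9.35 and 6.69 on the OSK − 4OHT, OSK + 4OHT, OSKA − 4OHT and OSKA + 4OHT arrays. Krt19 stood at 3.44 on the first array and 1.88 on the last, while Krt18, Krt8 and Cldn4 differed the other way between the OSKA arrays, by 0.86, 0.56 and 0.38. Endothelial genes (3 of 6, with Cdh5 and Tie1 at background) summed to between 8.05 and 11.9, neural genes (4 or 5 of 8) to between 6.31 and 6.68, and skeletal muscle genes (1 or 2 of 7, with Myod1 and Myog at background) to between 0.66 and 1.38. The part of any of these in the Hox differences was not tested.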

How the data were processed

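The members and gene lists were chosen with earlier results of these data known, so they are no independent support for any pattern. Cy3-labelled cRNA was hybridised to 4 arrays, 1 per group. As the labels and methods state, the authors extracted the scans with Agilent Feature Extraction 10.7.3.1. The deposited intensity is linear, corrected for background and spatial trend, with surrogate values for dim spots, and not normalized between arrays. The deposited table of the series holds the same intensity rounded, with ratios of 0.995 to 1.005 to the scanner values and medians from 19.6 to 23.8. It is therefore unlogged and uncentred.

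Unmarked spots that were not controls were set to log2 and reduced by the array's 75th percentile. The spots left out as marked numbered 104 to 155 on an array. Spots of a probe were averaged. A gene took its brightest probe over the 4 arrays, and differences needed both arrays well above background. With only the brighter array past the mark, the dimmer side took its own level or the lowest level above background there, whichever was higher, and the text gives "at least N-fold". Thresholds were 2-fold and 1.5-fold. Genes described in full were those past 2-fold, or with such a bound, in any comparison, and the 2 in each cluster with the largest 4OHT effect in OSKA cells. Further Hox genes named here were chosen after their values were seen. Probe accessions matched the RefSeq table (GRCm38.p6) for 44 of 45 member probes, each to the same symbol. Probe coordinates are NCBI37 (mm9). Some items are not reported here. The steps were tested on simulated data. The alternatives were other filters on dim probes, scalings, background correction and probe rules. Python 3.11.15, numpy 2.4.6, pandas 2.3.3, R 4.3.3 and limma 3.58.1 were used. The number of arrays limits the precision.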

Additional observations from a re-analysis of the deposited data

How the results depend on the processing

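No paired analysis was possible because each group had 1 array and the labels carry no replicate numbers. Without a filter on dim probes, the counts of Hox genes at least 2-fold higher became 3 for 4OHT in OSK cells, 1 for 4OHT in OSKA cells and 5 for AKT-MER without 4OHT, and those 2-fold lower became 1, 1 and 2 for 4OHT in OSKA cells, AKT-MER without 4OHT and AKT-MER with 4OHT. Under that setting 1270, 1882 and 1468 of all 34821 genes were 2-fold higher in the first 3 comparisons. In the last 3, 1455, 1523 and 1442 were 2-fold lower. With the filter kept and the threshold at 1.5-fold, the higher counts were 1, 1, 9 and 5. The lower counts, where this threshold moved them, were 1 for 4OHT in OSKA cells and 1 for AKT-MER without 4OHT. Spike-in scaling moved the Hox medians to -0.29 for 4OHT in OSK cells, -0.40 for AKT-MER without 4OHT and 0.35 for the difference of the 4OHT effects. It also gave 0 Hox genes 2-fold higher and 2 lower for AKT-MER without 4OHT, where 0.178% and 5.28% of all genes were. With normexp background correction, or with the mean of all probes, 0 Hox genes were 2-fold lower for AKT-MER with 4OHT. The other settings run, quantile normalization, scaling to the median, a filter on all 4 arrays and the series table, left the 2-fold counts and the medians in place. At 1.5-fold the filter on all 4 arrays gave 4 higher for AKT-MER with 4OHT and median scaling 2 lower for AKT-MER without 4OHT. Of 128 cluster medians, 9 moved by more than the error, 8 of them with spike-in scaling and the Hoxb median of AKT-MER without 4OHT with normexp (0.58). Of 339 values for single genes 40 moved. The causes were not tested. Dim genes such as Hoxc5, Hoxc8 and Hoxd3 have bounds only in comparisons with an array on which they were dim.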
